A study of Mus musculus with 4 samples.

Results

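Of the 59563 DHX9 peaks that the authors deposited for mouse embryonic stem (ES) cells, 2138 stood alone. A peak was counted as isolated when it lay off the mitochondrial genome and no other peak on its strand came within 20000 bases on either side. These members were chosen by the measured gaps between peaks, so the gaps and the number of isolated peaks are given as description only. The comparison set was the 57376 other nuclear peaks, and 3.59% of the 59514 nuclear peaks were isolated (95% Wilson interval 3.45 to 3.74%).

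The peaks came from FLASH, a form of CLIP-seq in which UV light links RNA to the protein it touches, an antibody brings the protein down and the bound RNA is sequenced. The cells were WT26, a feeder-independent male ES cell line of C57BL/6x129sV background, grown on gelatin with leukemia inhibitory factor, and no group carried a gene change or a drug. A rabbit antibody to DHX9 was used for 2 samples, and control rabbit IgG for the other 2, each set labelled as replicates A and B of the same line. The IgG material was mixed with the DHX9 material, under its own tag, before RNA isolation. The authors' list is 1 for the whole series and holds for each peak a position and a strand, with no height, fold or p-value and nothing per sample. The reads behind a peak are therefore unknown, no error between pulldowns can be given, and whether read depth differed between isolated and other peaks was not tested. Intervals of shares are 95% Wilson intervals over the peaks of this list, and that of a difference of shares is a Newcombe interval built from them. All intervals cover counting error only, and no test between isolated and other peaks was made.

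DHX9, also called RNA helicase A, unwinds RNA duplexes and RNA:DNA hybrids and is largely nuclear. Nuclear RNAs that an antibody to it could bring down include the long introns of messenger RNA precursors and short structured RNAs made by RNA polymerase III. Precursors of transfer RNA (tRNA) carry a leader before and a trailer after the mature tRNA, which RNase P and RNase Z remove, and RNA polymerase III stops at a run of T bases just past the gene.

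The marker lists were chosen with earlier results of these data known, so their counts describe the cells and are no check of them. Of 28 listed pluripotency genes 24 held a DHX9 peak of any kind, against 2 of 14 fibroblast markers and 1 of 19 markers of differentiated lineages. Of all 21900 protein-coding genes, 4982 held one. The 2 fibroblast markers with peaks held 64 peaks between them. Joining peaks of 1 strand across gaps of at most 20000 bases gave 6225 runs, of which the 2138 isolated peaks were the runs of 1. The largest run held 255 peaks.

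Isolated peaks over tRNA genes took a form that can be shown on a sequence. The stretch below holds n-TRtcg5, a tRNA gene for arginine at chr7:79466419-79466491, which lies in the RefSeq promoter window of Polg, the gene of the mitochondrial DNA polymerase. It is read on the plus strand of GRCm38.p6 over chr7:79466411-79466516, and capitals mark the isolated peak (chr7:79466443-79466508, plus strand, 66 bases).
n-TRtcg5: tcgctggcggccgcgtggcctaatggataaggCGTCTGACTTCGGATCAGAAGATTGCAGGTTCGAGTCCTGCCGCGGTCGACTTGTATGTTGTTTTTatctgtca
The peak began 24 bases inside the tRNA gene and ran 17 bases past its end, up to a run of T. The letters TTTT first occurred from base 13 after the gene. They are common, since 78.0% of the 32851 RefSeq promoter windows of 300 bases held TTTT on 1 strand or the other, and their place here is a description. It is shown because it was the 1 isolated tRNA peak that lay, with its gene, inside a RefSeq promoter window.

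A further stretch shows an isolated peak that faces a gene start from the other strand. Actr2 encodes a subunit of the Arp2/3 complex, which nucleates actin filaments. Its 250 bases before the start are given in the direction of the gene (GRCm38.p6, chr11:20112952-20113201, minus strand), with capitals for the 60 bases that the plus-strand peak covered. It was picked, after values were seen, as a case in no protein-coding gene whose peak reaches into the window.
Actr2: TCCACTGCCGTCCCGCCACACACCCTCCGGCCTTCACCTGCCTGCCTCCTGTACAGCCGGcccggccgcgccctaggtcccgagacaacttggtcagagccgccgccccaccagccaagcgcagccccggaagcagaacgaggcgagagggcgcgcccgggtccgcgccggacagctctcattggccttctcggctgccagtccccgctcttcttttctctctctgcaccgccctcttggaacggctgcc
The stretch was rich in G and C (70% of bases) and held 24 CG pairs. The peak itself was 189 bases wide (chr11:20113142-20113330), with its midpoint 285 bases before the start.

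Isolated peaks over microRNA hairpins were few, and their sequences show how differently they lay. There were 4 such peaks over 5 hairpin genes. The hairpins of Mir22, Mir24-1, Mir5099 and Mir6238 are given from RefSeq (GRCm38.p6) in the direction of each gene, with capitals for the bases inside the peak.
Mir22: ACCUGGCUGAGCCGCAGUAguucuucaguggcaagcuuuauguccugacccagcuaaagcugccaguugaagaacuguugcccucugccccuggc
Mir24-1: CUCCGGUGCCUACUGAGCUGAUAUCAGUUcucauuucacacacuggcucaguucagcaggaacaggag
Mir5099: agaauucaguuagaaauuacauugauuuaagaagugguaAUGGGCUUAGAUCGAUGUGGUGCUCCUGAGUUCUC
Mir6238: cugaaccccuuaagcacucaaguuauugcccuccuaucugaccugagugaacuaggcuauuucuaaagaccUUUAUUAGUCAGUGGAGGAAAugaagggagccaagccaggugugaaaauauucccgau
The peak at Mir22 (chr11:75463662-75463734) covered the first 19 bases of the hairpin and 1 base of the mature miR-22-5p. The peak at Mir24-1 (chr13:63301075-63301236) covered 29 bases of the hairpin, with all 23 bases of miR-24-1-5p and none of miR-24-3p. Mir3074-1 lies across Mir24-1 on the minus strand, so the same plus-strand peak was antisense to it. At Mir5099 (chr12:36816244-36816308) the peak covered the last 35 bases of the hairpin. The narrowest of the 4 lay wholly inside the hairpin of Mir6238 (chr7:53891798-53891818, 21 bases), of which 20 fell in the mature sequence. No mature sequence was listed for Mir5099, and for Mir3074-1 only miR-3074-5p, which the peak did not reach. The listed mature sequences that these peaks touched are given with the seed, bases 2 to 8, in capitals, and no seed was shared between them.
miR-22-5p: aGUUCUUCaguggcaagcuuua
miR-24-1-5p: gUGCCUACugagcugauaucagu
miR-6238: uUAUUAGUcaguggaggaaaug

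Isolated peaks were narrower than other peaks. Their median width was 142 bases (quartiles 105 and 193, range 18 to 551), against 198 bases (148 and 270, range 18 to 1001) for the others, a difference of -56 bases. The difference was -41 bases when each run of other peaks gave 1 value. Of isolated peaks, 22.2% (20.5 to 24.0%) were narrower than 100 bases, against 4.26% (4.10 to 4.43%) of the others. At least 300 bases were reached by 4.77% (3.95 to 5.76%) and 18.7% (18.38 to 19.02%). Both distributions overlapped over most of their range.

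Width rose in steps with the number of peaks in a run. Medians were 158 bases in runs of 2 peaks, 175 in runs of 3 to 5, 191 in runs of 6 to 20, 201 in runs of 21 to 50 and 213 in runs of over 50. Isolated peaks were thus at the low end of a gradient and not a group set apart by a gap in width. Read the other way, 105 of the 150 peaks under 50 bases were isolated (70%, 62.2 to 76.8%). The share fell to 13.4% of peaks of 50 to under 100 bases, 5.30% of those of 100 to under 150, 3.31% up to 200, 2.13% up to 300 and 0.942% of those of 300 bases or more. Among the 105 narrowest isolated peaks, 45 lay in no gene and 11 over a tRNA gene.

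**Figure D1:**
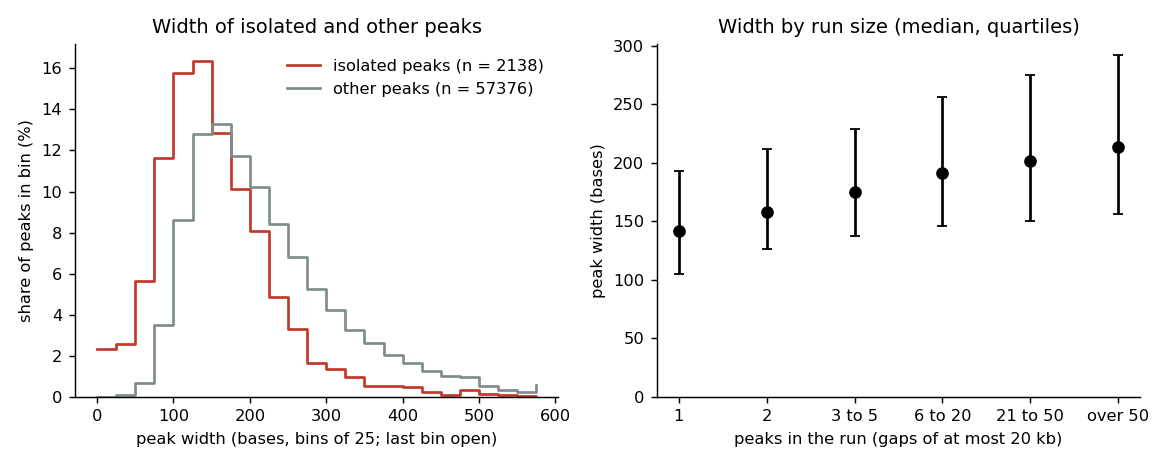
Left, share of peaks (%) in width bins of 25 bases for the 2138 isolated and 57376 other nuclear peaks. Right, median peak width in bases with quartiles (bars) by the number of peaks in the run; the median goes from 142 bases for isolated peaks to 213 in runs of over 50.

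Of the 10 widest isolated peaks 8 lay in protein-coding genes, against 71.7% of all isolated peaks, and of the 5 narrowest 4 lay in no gene. The widest, 551 bases, was in Rbm8a, which encodes a core protein of the exon junction complex (chromosome 3, 96632342 to 96632892). It was followed by 537 bases in Mycn, a MYC family transcription factor gene, and 530 in Psmc2, an ATPase subunit of the proteasome. Nsmce2, a SUMO ligase of the SMC5/6 complex, held 505 bases, the receptor tyrosine kinase gene Ephb4 502, the ubiquitin ligase gene Rnf121 499 and the co-chaperone gene Bag3 490. A peak of 490 bases lay where Cmss1 and Filip1l overlap, on the strand of Cmss1. The exceptions among these 10 were a 515-base peak of chromosome 3 that lay in no gene, 109285 bases from the nearest one, and a 496-base peak in the long noncoding RNA (lncRNA) gene Gm36876, on the strand opposite to that gene. The 5 narrowest were 18 or 19 bases wide. The one inside a gene, of 19 bases, was in Ccdc38, a coiled-coil protein gene.

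Isolated peaks lay less often in protein-coding genes than the other peaks did. The midpoint was in a protein-coding gene body, on either strand, for 1532 of 2138 isolated peaks (71.7%, 69.7 to 73.5%) and for 53641 of 57376 others (93.5%, 93.3 to 93.7%), a difference of -21.8 percentage points. It was in no RefSeq gene for 420 isolated peaks (19.6%, 18.02 to 21.38%) and 2387 (4.16%) of the others. The share in lncRNA genes alone was 5.005% (4.16 to 6.01%), or 107 peaks, against 2.04% (1.93 to 2.16%). Another 38 isolated peaks (1.78%) lay in small RNA genes alone and 41 (1.92%) in genes of another class alone, against 0.0889% and 0.223%. With 1 peak for each run of other peaks, the protein-coding difference was -19.6 points.

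Isolated peaks outside genes were also narrow, and at the median they lay farther from the nearest gene than other peaks outside genes. Those in no gene had a median width of 121 bases (quartiles 86 and 166), against 150 bases (111 and 200) for isolated peaks in protein-coding genes. Other peaks had medians of 191 and 198 bases in these classes. The 418 isolated peaks in no gene on placed chromosomes lay a median of 5.02 kb (quartiles 1.79 and 14.7) from the nearest gene, and the 2380 others 3.40 kb (1.26 and 10.3). Of the 418, 30 lay over 50 kb from any gene (7.18%, 5.07 to 10.06%), and of the others 106 (4.45%, 3.70 to 5.36%), with overlapping intervals. Isolated peaks overlapped a pseudogene in 52 cases (2.43%, 1.86 to 3.18%), against 0.546% (0.488 to 0.609%) of the others; pseudogenes can share reads with their parent genes, so their peaks are uncertain.

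**Figure D2:**
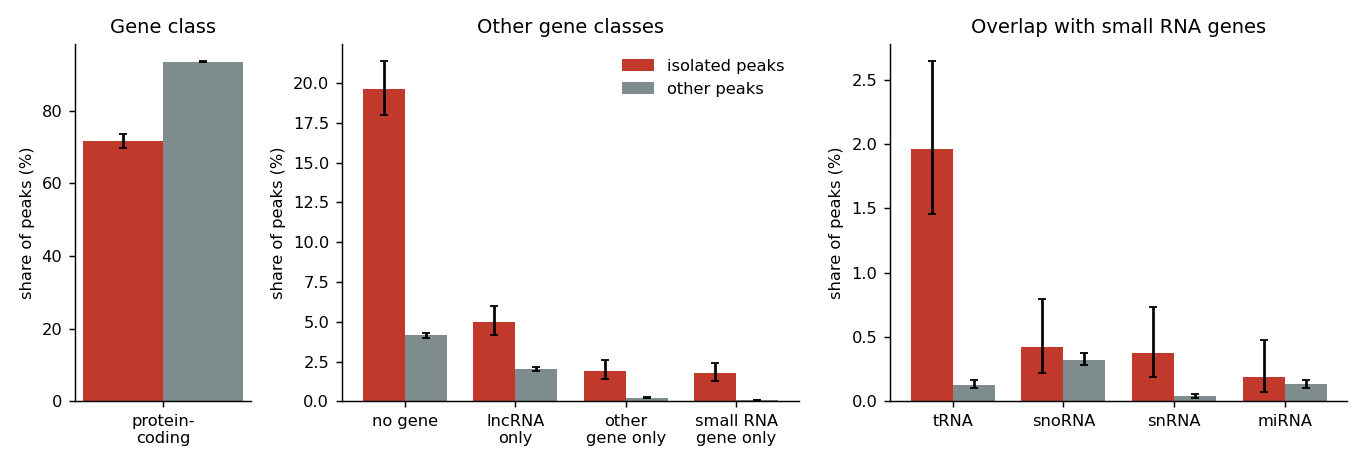
Share of peaks (%) by gene class of the midpoint (left and middle) and by overlap with small RNA genes (right), for isolated and other nuclear peaks; bars have 95% Wilson intervals. Isolated peaks are lower in the protein-coding class (71.7% against 93.5%) and higher over tRNA genes (1.96% against 0.131%).

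Small RNA genes, and tRNA genes above all, lay under isolated peaks more often than under the others. Of isolated peaks, 65 (3.04%, 2.39 to 3.86%) overlapped a small RNA gene, against 362 of the others (0.631%, 0.569 to 0.699%) and 0.717% of all nuclear peaks. For tRNA genes the counts were 42 isolated peaks (1.96%, 1.46 to 2.64%) and 75 others (0.131%, 0.104 to 0.164%), with 0.197% of all nuclear peaks. The isolated share was 15.0 times that of the others. The difference of 1.83 points was 0.181 points when only peaks no narrower than the median were kept, and 1.19 points when both strands had to be free of neighbours. Among peaks outside protein-coding and lncRNA genes, 32 of 499 isolated peaks (6.41%, 4.58 to 8.91%) and 52 of 2566 others (2.03%, 1.55 to 2.65%) overlapped one, and the ratio was then 3.16. Isolated peaks marked 42 of the 117 nuclear tRNA genes that any peak overlapped, out of 408 in the RefSeq table (28.7% with a peak, 10.3% with an isolated one). Copies of a tRNA gene can be near-identical, so which copy a read came from is uncertain.

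All 42 isolated tRNA peaks ended past the gene on their own strand. They ran a median of 22.5 bases beyond its last base, from 6 bases at n-TAtgc5, a gene for alanine tRNA, to 97 at n-TYgta9, a gene for tyrosine tRNA. In 19 cases the peak held the whole gene, and in 23 it began inside the gene; none began before the gene and ended inside it. The tRNA gene table gives no strand, so the end of a gene is here its end along the strand of the peak. The 19 peaks that held the whole gene overhung both of its ends. All 75 other peaks over tRNA genes also ended past the gene, by a median of 29 bases, and 37 of them also began before it. This form was thus not particular to isolated peaks. Isolated tRNA peaks had a median width of 81.5 bases (27 to 197), and the others 107 bases.

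The isolated tRNA peaks were spread over many acceptor types. An isolated peak lay over 6 of 25 genes for leucine tRNA, 4 of 11 for histidine, 4 of 20 for glutamate and 4 of 24 for arginine. Tyrosine and asparagine tRNA genes had an isolated peak in 3 of 10 and 3 of 13 cases, and serine and alanine genes in 3 of 22 and 3 of 33. None of the genes for aspartate, phenylalanine, lysine, glutamine or tryptophan tRNA had one. For cysteine, whose 56 named genes are the most in the table, 2 had one. These counts are too small to order the types.

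**Figure D3:**
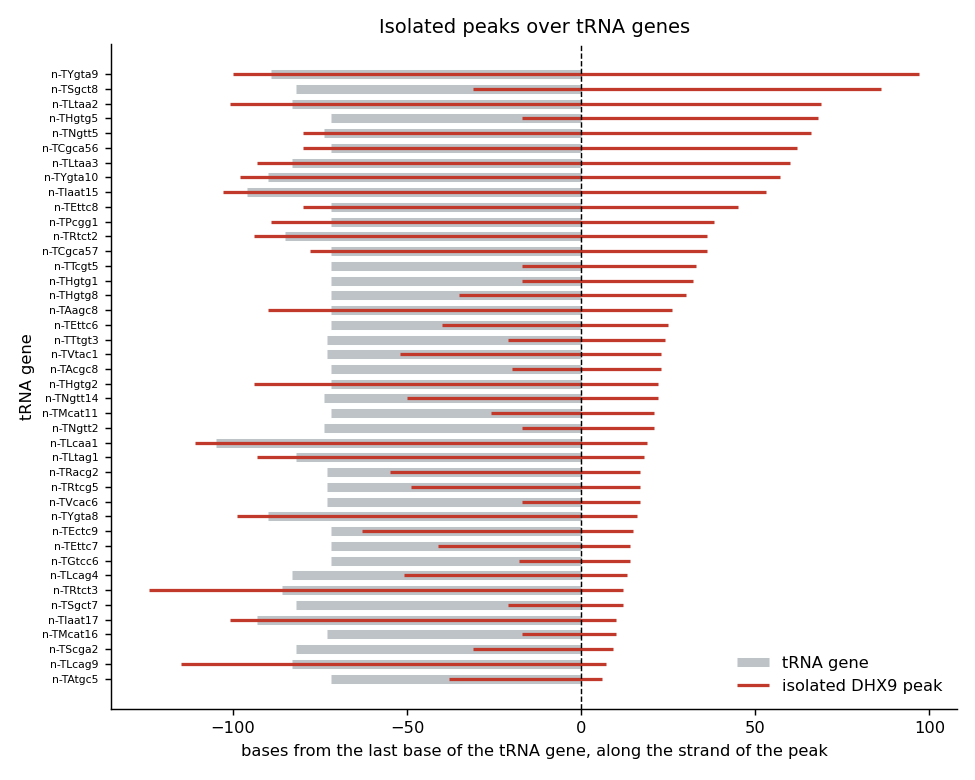
Each row is 1 of the 42 isolated peaks over a tRNA gene, drawn in bases from the last base of the gene (dashed line) along the strand of the peak; grey bars are the genes and red lines the peaks. Each red line crosses the dashed line, by 6 to 97 bases, and 23 begin inside the gene.

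Several other structured small RNA genes lay wholly or largely inside a single isolated peak, and others were covered in part. Rn7sk, the RNA that holds the elongation factor P-TEFb inactive, had an isolated peak of 322 bases over 94.3% of its 332 bases (chromosome 9, 78175293 to 78175614). Rmrp, the RNA of RNase MRP, lay wholly inside a peak of 283 bases that ran only 2 bases before and 6 after the gene (chromosome 4, 43492779 to 43493061). The Y RNA gene Rny3 lay wholly inside a peak of 121 bases. Rnu3a, a U3 RNA gene of ribosomal RNA processing, lay wholly inside one of 233 bases. At Rnu12, the U12 RNA of the minor spliceosome, a peak of 143 bases covered the last 50% of the gene and ran 68 bases past it.

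The remaining snRNA and snoRNA peaks also ended past the gene in most cases. Including those named above, 18 of 19 isolated peaks over small RNA genes other than tRNA and microRNA genes ended past the gene along their strand, by a median of 16 bases; the exception was the snRNA gene Gm23483. Other peaks did so at 164 of 175 snoRNA overlaps (93.7%) and 16 of 23 snRNA overlaps (69.6%), so the overhang was not a trait of isolated peaks alone. Isolated peaks overlapped 8 snRNA genes (0.374% of isolated peaks, against 0.0401% of the others) and 9 snoRNA genes (0.421%, 0.222 to 0.798%, against 0.324%, 0.281 to 0.374%). Classes are those of RefSeq, which lists Rnu3a as an snRNA gene. These snoRNA shares include RefSeq guide RNA genes, which the 175 overlaps leave out. For snoRNA genes, which guide RNA modification and cleavage and mostly lie in introns of host genes, the intervals overlapped, as they did for microRNA genes (0.187% against 0.134%). Snord118, the U8 RNA of ribosomal RNA processing, lay outside any host and wholly inside a peak of 210 bases (chromosome 11, 69073422 to 69073631). Snora78, Snora7a and Snord91a were also covered whole, by peaks of 260, 173 and 87 bases, while Snora24 and Snora57 were covered over 44.6% and 39.3% of their length. The snRNA gene Gm22265, inside Hhat, lay whole in a peak with 7 bases before it and 6 after.

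Within protein-coding genes, isolated peaks lay antisense far more often than the others. Strands came from RefSeq promoter windows and were known for every protein-coding host of 1215 isolated and 44234 other peaks. Of these, 123 isolated peaks (10.1%, 8.55 to 11.9%) were on the strand opposite to all their hosts, against 406 others (0.918%, 0.833 to 1.01%) and 1.16% of all such nuclear peaks, a ratio of 11.0. The share declined with run size, from 3.10% (2.21 to 4.35%) in runs of 2 to 0.495% (0.392 to 0.625%) in runs of over 50. When a peak had to be free of neighbours on both strands, the difference between isolated and other peaks was 6.02 points in place of 9.21. Antisense peaks include some over small RNA genes inside a host, such as that over Snora78 in Rps2, and the share without these was not taken. Isolated antisense peaks were narrow, with a median of 118 bases (quartiles 90.5 and 163), against 153.5 bases (116 and 203) for isolated sense peaks. Of the 123, 49 had a peak on the other strand within 20000 bases (39.8%, 31.6 to 48.7%), a lower share than among other antisense peaks (55.2%, 50.3 to 59.9%).

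Along their hosts, isolated sense peaks were spread more evenly than the others and were more frequent at the end. The last 20% of the gene body held 233 of 1097 pairs of a peak and a host (21.2%, 18.9 to 23.8%), against 5275 of 44134 (11.95%, 11.65 to 12.26%) for the others. The next-to-first 20% held 18.5% (16.3 to 20.9%) against 24.4% (24.0 to 24.8%). The first 20% held 24.0% (21.5 to 26.6%) against 27.1% (26.7 to 27.5%). That difference turned with the way of counting: with 1 peak for each run it was 4.03 points in place of -3.12. Within 5 kb of the gene end lay 17.3% (15.2 to 19.7%) of isolated and 11.0% (10.7 to 11.2%) of other such pairs. The median distance to the gene end was nevertheless not shorter for isolated pairs. It was 26.2 kb (quartiles 7.72 and 68.8) for them and 23.5 kb (10.7 and 52.4) for the others. RNA levels along genes are not in the list, so more RNA and more binding at a place cannot be told apart. Isolated peaks were chosen by free gaps on either side, and a peak near a gene end has little gene body beyond it. How far that rule sets the place of isolated peaks along their hosts was not tested.

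**Figure D4:**
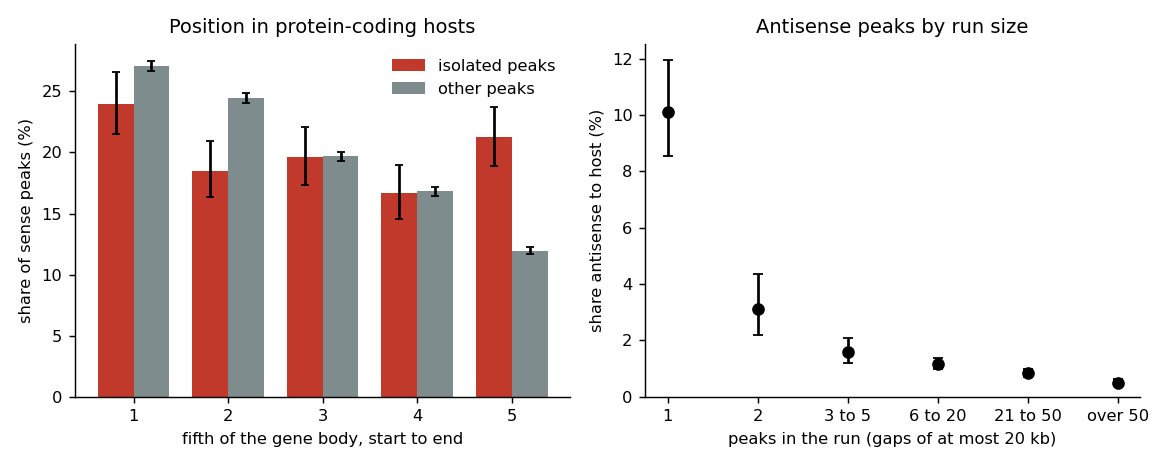
Left, share (%) of pairs of a sense peak and a protein-coding host in each 20% of the host, from start to end, for isolated and other peaks. Right, share (%) of peaks antisense to their protein-coding hosts by the number of peaks in the run. Bars are 95% Wilson intervals. The last 20% holds 21.2% of isolated and 11.95% of other pairs, and the antisense share goes from 10.1% to 0.495%.

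The hosts of isolated peaks were long genes. Over all pairs of a peak and a protein-coding host, the median host length was 65.8 kb (quartiles 27.2 and 136) for isolated peaks and 48.1 kb (25.8 and 90.3) for the others. The difference of 17.6 kb was 8.98 kb with a gap of 50000 bases, 9.06 kb among peaks of at least the median width, 9.07 kb for hosts of every class, and 27.3 kb when both strands had to be free of neighbours. Host genes numbered 1402, of which 137 held at least 2 isolated peaks and 17 at least 3. For 1003 of the 1402, isolated peaks were the only ones. For 920 of the 1532 isolated peaks in protein-coding genes (60.1%), the peak was the single peak of a host. A gap of 20000 bases leaves room for several isolated peaks only in a long gene, and how far the rule sets the link with length was not tested.

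The genes with the most isolated peaks differed in how many other peaks they held. Vps13b, a lipid transfer protein gene of 560 kb on chromosome 15, held 5 peaks, all isolated and on the plus strand, with widths of 72 to 211 bases and nearest gaps of 22.5 to 109 kb. Ldlrad4, which encodes an inhibitor of TGF-beta signalling, likewise held 3 peaks, all isolated. Utrn, the gene of the dystrophin relative utrophin, held 4 isolated peaks among 7, with widths of 21, 61, 121 and 327 bases. Auts2, a neurodevelopmental gene of 1106 kb, held 4 among 9.

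Further genes of this group also held peaks that were not isolated. The RNA demethylase gene Fto held 3 isolated peaks among 12. Rptor, a subunit gene of mTORC1, held 3 among 6. In Ctnna1, the alpha-catenin gene, 4 of 31 were isolated, with widths of 158 to 186 bases. Macf1, a cytoskeletal linker gene, had 3 isolated peaks among 171. In each of these the isolated peaks were on the strand of the other peaks. Tenm3, a teneurin gene of 1297 kb, was the exception: 1 of its 3 isolated peaks, 24 bases wide, was on the plus strand, opposite to the gene and its other 9 peaks.

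Few isolated peaks lay in genes that define ES cells. Only 4 of the 869 peaks in listed pluripotency genes were isolated (0.460%, against 2.78% of all peaks in protein-coding genes). Counted by gene the contrast was smaller. Of the 24 listed genes with a peak 4 held an isolated one, against 1402 of the 4982 protein-coding genes with any peak. Klf2, a naive-state transcription factor gene of 2.59 kb, and Tbx3, another transcription factor gene, each held 1 peak, which was isolated. Lin28b, which blocks let-7 maturation, held 2 peaks, of which 1 of 262 bases was isolated. The isolated peak in Utf1 was on the minus strand, opposite to the gene, and lay 0.048 kb from a plus-strand peak. Of the fibroblast markers, Loxl1 held 1 isolated peak. The listed double-stranded RNA-binding genes held none among 204 peaks.

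In the listed very long genes, picked as silent or low in ES cells from general knowledge, 9 of 37 peaks were isolated (24.3%, against 2.78% of all peaks in protein-coding genes). Among the 24 listed genes, 9 held a peak of any kind. Of the 37 peaks, 12 lay in Wwox and 9 in Auts2, where 4 were isolated. Whether the listed genes were silent or low in these cells was not tested, and only a long gene has room for several isolated peaks. Dab1, a reelin adaptor gene of 1125 kb, held a single peak of 467 bases. Lrp1b (2058 kb) and Macrod2 (1998 kb) held 1 peak each, of 56 and 277 bases. That of Macrod2 was opposite to the gene. In Wwox, an oxidoreductase gene at a fragile site, 2 of 12 were isolated, and those of Auts2 make up the rest. These lists were chosen with earlier results of these data known.

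Helicase, ribosomal protein and histone genes supplied a few isolated peaks each, to be read against the 2.78% of all peaks in protein-coding genes that were isolated. Of the 234 peaks in listed DExD/H helicase genes 2 were isolated (0.855%), the single peaks of Ddx58, the RNA sensor RIG-I (246 bases), and Ddx42 (113 bases). Of the 226 peaks in ribosomal protein genes 6 were (2.65%), which is near that share, and in Rpl38, Rpl15, Rpl29, Rps14 and Rpl32 the isolated peak was the only one. The widest of these, 418 bases, was in Rpl29. The peaks counted for Rps2 and Rpl32 are those over Snora78 and Snora7a, and the first lay on the strand opposite to Rps2. Histone genes held 5 isolated among 46 peaks (10.9%), in H2bc12, H2bc13, H2ac21, H3c3 and H4c14. Peaks on the other strand came within 0 to 6.36 kb of each of these 5, in gene clusters read from both strands, and near-identical histone copies make their reads uncertain.

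Near gene starts, isolated peaks differed from the others on both strands. Start positions were known for the chromosomes of 2072 isolated and 55960 other peaks. On the strand of the gene, 1.01% (0.664 to 1.54%) of isolated peaks had their midpoint in the first 250 bases past a start, against 0.768% (0.699 to 0.844%). At 250 to 1000 bases the shares were 2.65% (2.05 to 3.44%) and 2.18% (2.07 to 2.31%). In both of these bins the intervals overlapped. From 1000 to 2000 bases past a start the isolated share was the lower one, 2.03% (1.503 to 2.728%) against 3.18% (3.04 to 3.33%), and from 2000 to 5000 bases it was 6.52% (5.53 to 7.66%) against 10.9% (10.6 to 11.2%). On the other strand, 2.36% (1.79 to 3.11%) of isolated peaks lay 250 to 1000 bases before a start, against 0.663% (0.599 to 0.734%). Past a start on the other strand the isolated share was also the higher one, with 0.724% (0.439 to 1.19%) against 0.180% (0.149 to 0.219%) at 1000 to 2000 bases and 1.79% (1.30 to 2.45%) against 0.617% (0.555 to 0.685%) at 2000 to 5000 bases. The excess on the other strand was thus not limited to the bases before a start.

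Over 250 to 2000 bases before a start on the other strand there were 86 isolated peaks (4.15%, 3.37 to 5.10%) and 980 others (1.75%, 1.65 to 1.86%). Many of these lay inside a protein-coding gene. Only 45 isolated peaks (2.17%, 1.63 to 2.89%) and 128 others (0.229%, 0.192 to 0.272%) lay in none. Of the 86, 12 overlapped small RNA genes, among them Rmrp and Rn7sk, and without these 74 remained (3.57%, 2.85 to 4.46%, against 1.71%). For peaks with no neighbour within 20000 bases on either strand the difference was 0.453 points (95% interval -0.164 to 1.28) in place of 2.40. That setting no longer counts as isolated a peak facing a gene with peaks close by on its own strand. What the excess rests on was not tested. The promoters that the 86 faced had a median of 59.7% G and C and 23 CG pairs in their 300-base windows, against 52.7% and 7 for all 32851 windows. The 442 promoters faced by other peaks had 61.7% and 23. Among the 86 were peaks before Ccar1, an apoptosis and transcription regulator gene (327 bases), and Tbrg4, a mitochondrial RNA-binding protein gene (332 bases).

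**Figure D5:**
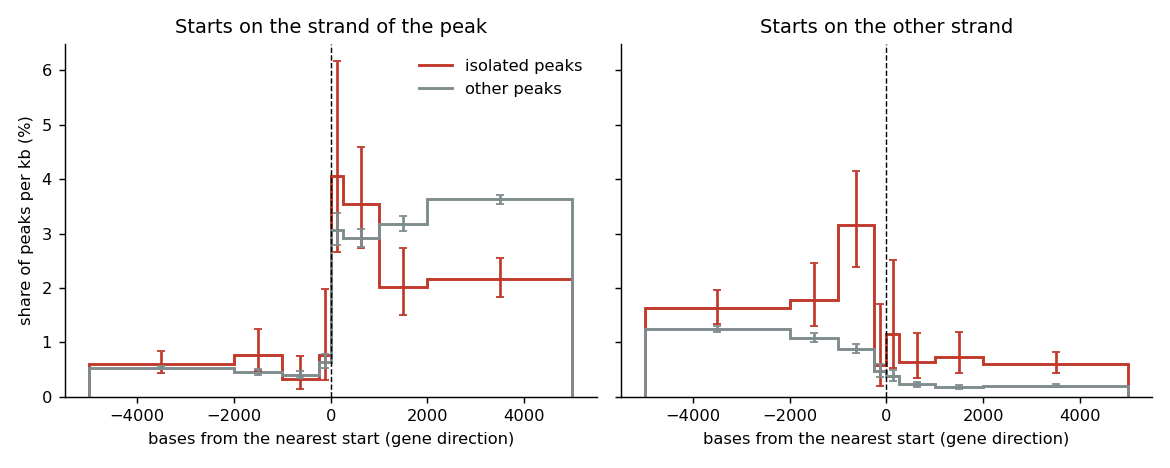
Share of peaks per kb (%) by distance in bases of the midpoint from the nearest annotated gene start, for starts on the strand of the peak (left) and on the other strand (right); negative distances lie before the start, and bars are 95% Wilson intervals. On the other strand the isolated share is highest 250 to 1000 bases before the start, where it is 3.15% per kb against 0.884% per kb.

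The 10 isolated peaks nearest to a start on their own strand had midpoints 24 to 94 bases past it. The starts were those of Pgbd5, a domesticated transposase gene (24 bases, peak of 268 bases), the translation factor gene Eif5a (29 bases), the histone gene H3c3 (33), the RNA nucleotidyltransferase gene Tent4a (37) and D030056L22Rik (57). The others were those of H2bc13 (60), 2900060B14Rik (69), Zfp507 (74), the respiratory chain gene Cox5a (84) and the RNA-binding protein gene Rbm26 (94). Their widths ran from 120 to 268 bases.

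Peaks at the limit of the rule and far from any neighbour complete the description. The 3 isolated peaks closest to the limit were a pair in Plxdc1 that lay 20005 bases apart, with widths of 161 and 203 bases, and a peak of 128 bases in no gene, 20017 bases from its neighbour. Just outside it were a pair in Scarb1, 19969 bases apart (218 and 289 bases wide), and a peak in Rsbn1l at 19950 bases (85 bases wide). The median nearest gap was 92.2 kb (quartiles 38.9 and 350 kb) for isolated peaks and 135 bases for the others. The 5 largest nearest gaps ran from 6861995 to 10058841 bases, of which 4 were on chromosome X and 1 on chromosome 1, with widths of 23 to 122 bases. On chromosome X 76 of 1267 peaks were isolated (6.00%, 4.82 to 7.44%), and on chromosomes 8 and 11, the 2 with the most peaks, 2.21% (1.84 to 2.64%) and 2.43% (2.10 to 2.81%); the other autosomes ranged from 3.13 to 4.90%.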

How the data were processed

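FLASH libraries of 2 DHX9 and 2 IgG pulldowns were made by the authors. Per the file's source column, the deposited peaks were called with PEAKachu (version and options: not given in the sources used here). The submitters' processing notes name Bowtie2 2.2.6 and the builds hg19 and mm10. The deposited values are the first and last base of each of 59563 peaks, with an empty score field. How the IgG samples entered the calling is not stated. The 49 mitochondrial peaks were left out.

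Genes came from a RefSeq table of GRCm38.p6, the assembly of mm10 (49980 placed genes), and strands from RefSeq promoter and microRNA tables, which gave 1 for 17492 of 21900 protein-coding genes and none on chromosome 18. A peak belonged to every gene that held its midpoint; small RNA overlap needed 1 base. The isolated peaks and all gene lists were chosen with earlier results of these data known. Named were peaks over small RNA genes, the 10 widest and 5 narrowest, those with extreme gaps, the 10 genes with the most isolated peaks, list members and the 10 peaks nearest a start. For host ranking ties went to the longer gene. Analyses used Python 3.11.15, pandas 2.3.3 and SciPy 1.17.1, and the gap and overlap steps were tested on simulated data. Shares have 95% Wilson intervals, and differences of shares have Newcombe intervals built from them. Differences of medians have binomial intervals of the isolated median, with the median of the others held fixed. No test was run, since the list is single and its gaps chose the members. Alternatives changed the gap, the strand rule, merging, the weight of runs, the width minimum and the gene assignment. One of the genes that the naming rule picks is not reported here.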

Additional observations from a re-analysis of the deposited data

How the results depend on the processing

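Of 101 values under other settings, 100 kept their direction. Of the 101, 64 stayed within the 95% interval of the value given above (counts of peaks, within 1.5 times). Counts of isolated peaks are among the 101 and have no direction to lose. Keeping only placed chromosomes left 2136 isolated peaks, so that setting could change little. What moved the values outside the interval was not tested unless the setting's construction shows it. With a gap of 10000 bases the differences (isolated minus other) were -51 bases in width and, in points, -18.2 for protein-coding genes, 13.1 for no gene and 6.83 antisense. With 50000 bases there were 1409 isolated peaks, and the values were -26.4, 18.4 and 11.2 points, 4.06 points for lncRNA genes and 8.98 kb in host length. With no peak on either strand within 20000 bases they were -18.7 (protein-coding), 13.5 (no gene), 1.36 (small RNA), 1.19 (tRNA), 6.02 (antisense) and 0.453 (before a start on the other strand) points and 27.3 kb. Merging peaks within 50 bases gave a width difference of -64 bases. With 1 peak for each run of other peaks the values were -41 bases, -19.6 points (protein-coding), 1.67 (small RNA) and 26.3 kb, and the first 20% of the host turned to 4.03 points. Among peaks of at least the median width they were, in points, -14.6 (protein-coding), 9.69 (no gene), 1.84 (lncRNA), 1.29 (small RNA), 0.181 (tRNA), 3.77 (antisense), -6.58 (first 20% of the host) and 14.2 (last 20%), with 9.06 kb in host length; taking gaps again among these peaks gave 1414 isolated ones. Counting only genes on the strand of the peak, which drops genes with no strand in the tables, gave -25.2 (protein-coding), 23.5 (no gene) and 1.66 (lncRNA) points, and hosts of every class gave 9.07 kb. The settings without small RNA peaks, those for peaks before starts and the width per run were chosen after seeing the data. No paired analysis was possible because the list holds no values per sample and no result comes from a test; for the same reason no replicate could be left out. Read depth behind a peak is unknown and limits every value here.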

Other observations

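At 4 places an isolated plus-strand peak overlapped an isolated minus-strand peak. The longest overlap, 284 bases, was in the lncRNA gene Gm36876 and held the whole plus-strand peak. The next, 185 bases, was in Vmn2r29, a vomeronasal receptor gene, where the nearest peaks of the same strands lay 1006523 and 2265265 bases away. The others shared 159 bases on chromosome 11 and 24 bases on chromosome 2, both in no gene. Any peak on the other strand overlapped 29 isolated peaks (1.36%, 0.946 to 1.94%) and 165 others (0.288%, 0.247 to 0.335%). Within 20000 bases these shares were 17.2% (15.7 to 18.9%) and 16.3% (15.98 to 16.59%).

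Counted by run, chromosome X again had the highest share of isolated peaks: 45.5% of its 167 runs were single peaks, against 28.7 to 38.6% on the autosomes. On chromosome Y 1 of 80 peaks was isolated.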
